A study of Canis lupus familiaris with 5 samples.

Results

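The genes described here form a module of G2 and mitosis: a list of 43 symbols for the machinery that a cell uses between the end of DNA replication and its division. Of the 43 symbols, 41 were among the 20257 features of the deposited matrices, and CKS2 and BIRC5 had no feature under those symbols. The module was followed through dog bone marrow with gates on the raw counts of lineage genes, applied to each cell barcode.

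The samples were 5 droplet libraries of femoral marrow, in which the 3' end of each transcript is tagged with a unique molecular identifier (UMI). Whole marrow of 3 dogs gave 3 unsorted libraries, here whole marrow 1 to 3. Viable CD34-positive cells, sorted from marrows 2 and 3, gave 2 more, here sorted 1 and 2; CD34 is a surface protein of hematopoietic stem and progenitor cells. All libraries carried the genotype label Wt, red cells were lysed in all of them, 5000 cells were targeted in each, and whole marrow was accepted at a viability above 70% with neutrophils below 25% by flow cytometry. Each library is 1 preparation. Where the library is a block in the fit, p-values measure how differences between gates vary from library to library, with 1 estimate shared over the gates. Where sorted and whole marrow are compared without a block, they measure the spread between these libraries. Sorted 1 and 2 come from the same dogs as whole marrow 2 and 3. Tests over all 5 libraries, by fit or by permutation, treat libraries of the same dog as separate unless the marrow is named as a block.

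Entry into mitosis is driven by the kinase CDK1 with its B-type cyclins, and the aurora, BUB1, NEK2 and TTK kinases then control the spindle and the attachment of chromosomes. CDC20 and UBE2C serve the anaphase-promoting complex, the ubiquitin ligase that ends mitosis, and kinesins, spindle proteins and the contractile ring separate the daughter cells. In marrow, progenitors and early precursors of each lineage divide, and neutrophils and red cells stop dividing before they mature.

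After barcodes with fewer than 200 genes or more than 10% mitochondrial UMIs were left out, the whole-marrow libraries kept 7295, 4585 and 4343 barcodes and the sorted libraries 4720 and 3765. The median depth was 2694, 3689 and 4344 UMIs in whole marrow and 11622 and 14623 UMIs in the sorted libraries. No pair of libraries shared more than 11 barcodes. Barcodes with at least 5 UMIs of LTF and MMP8 together, both granule proteins of neutrophils, made up 56.1%, 51.9% and 56.0% of the whole-marrow barcodes, above the 25% that the flow cytometry limit set for neutrophils. Doublets were called as the highest-scoring barcodes at a preset rate of 0.8% per 1000 barcodes, which set the calls at 3.00% to 5.84% of barcodes. Called doublets were kept, and removing them is among the alternatives below.

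The gates were SULT1B1 plus TFPI at 4 or more UMIs (called the stem gate here), GATA1 at 2 or more UMIs with AHSP below 0.2%, AHSP at 0.2% or more, MPO at 0.1% or more with ELANE below 1%, ELANE at 1% or more, CAMP at 1% or more, LTF plus MMP8 at 5 or more UMIs, CXCL8 at 2 or more UMIs, VCAN at 2 or more UMIs and VPREB1 at 5 or more UMIs. GATA1 is an erythroid and megakaryocytic transcription factor and AHSP a chaperone of alpha globin. MPO and ELANE are enzymes of the primary granules made by early neutrophil precursors, CAMP is a protein of the later granules, VCAN is a proteoglycan of monocytes, and VPREB1 is part of the surrogate light chain of B-cell precursors. Gates on MS4A1 (2 or more UMIs, VPREB1 below 5), a B-cell surface protein, and on CD3E (2 or more UMIs), a T-cell receptor subunit, were added as references.

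The gates overlapped. Of the CAMP gate, 95.5%, 97.8% and 97.7% of barcodes in whole marrow 1 to 3 were also in the LTF+MMP8 gate. For the tests each barcode was therefore given to the earliest gate of its lineage (MPO, ELANE, CAMP, LTF+MMP8, CXCL8 for neutrophils), here called a stage, and barcodes in gates of more than 1 lineage were left out. The GATA1 stage was mixed. In whole marrow its erythroid markers (ALAS2, HBM, HEMGN, KLF1, RHCE, SLC4A1) summed to at most 192 counts scaled to 1000000 (CPM), against 13870 CPM in the AHSP stage. Its eosinophil, basophil and mast cell markers reached 925 CPM.

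Of the 10 gates, the module took the largest mean share of UMIs in the stem and VPREB1 gates and the smallest in the ELANE gate. Gates as written gave a mean share per barcode of 1.12% ± 0.419 (SD, n = 3 whole marrows) for stem, 1.09% ± 0.246 for VPREB1, 0.705% ± 0.0578 for AHSP, 0.584% ± 0.0660 for VCAN and 0.511% ± 0.113 for GATA1. The neutrophil gates gave 0.496% ± 0.0535 for MPO, 0.303% ± 0.0345 for ELANE, 0.424% ± 0.0144 for CAMP, 0.502% ± 0.00954 for LTF+MMP8 and 0.556% ± 0.00715 for CXCL8. The stem and VPREB1 values differed by less than their SDs, as did the MPO and LTF+MMP8 values. The place of the stem gate came with barcodes that other gates hold too: in whole marrow 1, 69.4% of it was also in the VPREB1 gate. With barcodes of several lineages left out, the stem share was 0.696%, 0.222% and 0.215% in whole marrow 1 to 3, over few barcodes (17, 14 and 17), and that of AHSP was 0.718% ± 0.0686.

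**Figure D1:**
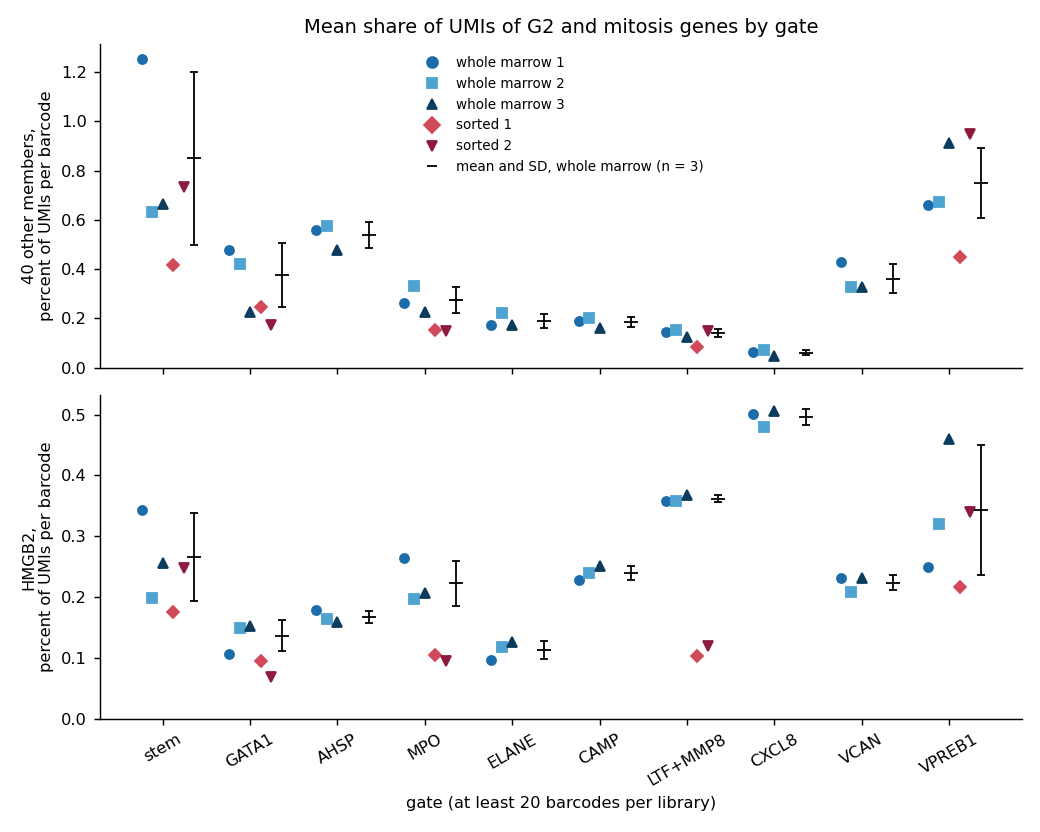
Share of each barcode's UMIs taken by the G2 and mitosis module (percent, vertical axis) in the gates as written, with 1 point per library, for the 40 members other than HMGB2 (upper panel) and for HMGB2 (lower panel); the bar beside the points is the mean and SD of 3 whole marrows. From the CAMP to the CXCL8 gate the mean of the 40 members goes from 0.183% to 0.0605% and that of HMGB2 from 0.240% to 0.496%.

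HMGB2, a chromatin protein that bends DNA and is abundant in dividing cells, set the order of the late neutrophil gates. Of the module's mean share per barcode it made up 92.6% ± 0.904 (SD, n = 3) at the LTF+MMP8 stage and 93.1% ± 0.400 at the CXCL8 stage. That part was 58.6% ± 3.65 at the CAMP stage and 23.0% ± 1.97 at the AHSP stage. Counts of UMIs, which follow the deepest barcodes, gave HMGB2 a smaller part at the LTF+MMP8 stage. It had 10.1 of 12.8, 12.6 of 17.7 and 16.2 of 21.6 module UMIs per barcode in whole marrow 1 to 3. Without HMGB2 the mean shares of the gates as written were 0.273% ± 0.0534 for MPO, 0.189% ± 0.0283 for ELANE, 0.183% ± 0.0202 for CAMP, 0.140% ± 0.0145 for LTF+MMP8 and 0.0605% ± 0.0115 for CXCL8. The CXCL8 gate then held the smallest share of the 10 gates, and each of its 3 whole-marrow values lay below each whole-marrow value of the other 9.

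To set barcodes of unequal depth side by side, each barcode with at least 1000 UMIs was thinned to 1000, and a barcode with 3 or more UMIs of the 40 members other than HMGB2 was called module-high. In CD3E barcodes, a type expected to be mostly at rest, 7.61%, 10.7% and 6.85% were module-high in whole marrow 1 to 3 at a median depth of 2380, 2684 and 3897 UMIs, and these shares serve as the background level. Module-high is a range cut from a count, not a cell type, and the intervals given for it cover counting error only.

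In the neutrophil lineage, the MPO stage had 50.7%, 56.5% and 25.6% of module-high barcodes in whole marrow 1 to 3. The ELANE stage had 22.0%, 34.3% and 25.1%, and the CAMP stage had 24.1%, 25.1% and 21.0%, and in whole marrow 3 the 3 stages lay within 5 percentage points. The LTF+MMP8 stage had 2.56% (34 of 1326 barcodes, exact 95% binomial interval 1.78% to 3.56%), 3.09% (24 of 777, 1.99% to 4.56%) and 2.14% (19 of 887, 1.29% to 3.32%). The CXCL8 stage had 3.70%, 2.01% and 0.735%, with 108, 199 and 272 barcodes deep enough to count.

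Both late stages lay below the CD3E background in every whole marrow. The median depth was 3472, 4014 and 6036 UMIs at the CAMP stage and 1566, 1848 and 2590 UMIs at the LTF+MMP8 stage before thinning. The few deep barcodes of the LTF+MMP8 stage carried most of what was left: barcodes above 10000 UMIs were 1.36%, 2.76% and 2.58% of the stage and held 50.9%, 81.7% and 87.7% of its UMIs of the 40 members. What those deep barcodes are was not tested.

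**Figure D2:**
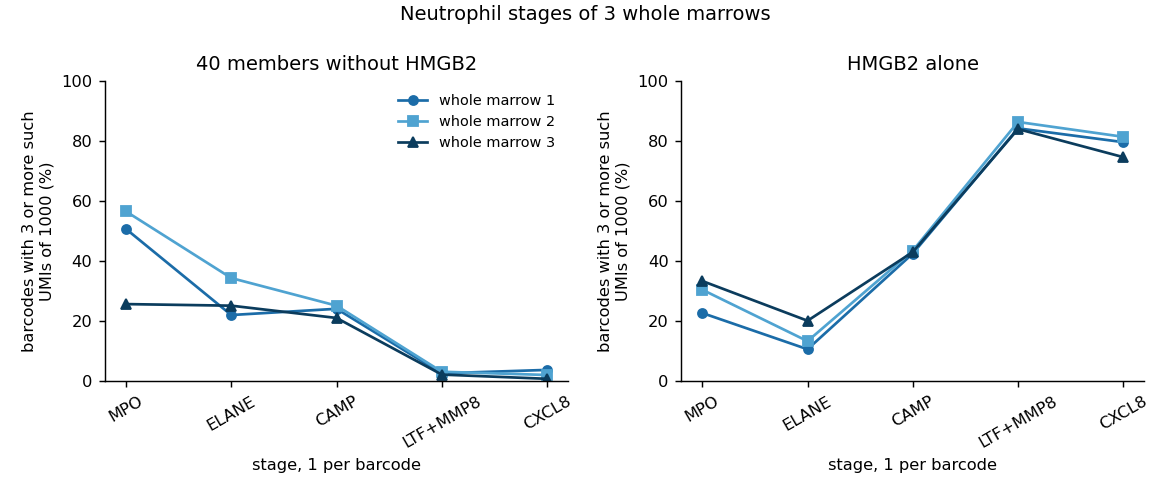
Percent of barcodes with at least 3 such UMIs of 1000 (vertical axis) along the neutrophil stages from MPO to CXCL8, with 1 line per whole-marrow library, for the 40 members without HMGB2 (left) and for HMGB2 alone (right). At the LTF+MMP8 stage the left panel lies between 2.14% and 3.09% and the right panel between 84.0% and 86.4%.

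The cyclin-dependent kinase and its partners separated the CAMP and LTF+MMP8 stages. CDK1, the kinase of mitotic entry, had mean levels of 36.2, 43.1 and 49.0 CPM at the CAMP stage and 4.39, 7.40 and 8.63 CPM at the LTF+MMP8 stage of whole marrow 1 to 3. CCNB2, a B-type cyclin, had 82.9, 80.2 and 90.1 CPM and then 6.30, 10.3 and 11.9 CPM. The values of the 2 stages did not overlap for either gene. In the edgeR quasi-likelihood test on UMIs summed per library and stage, CCNB2 fell by 2.33 on the log2 scale (SE 0.36, adjusted p = 2.9e-05) and CDK1 fell by 1.61 (SE 0.33, adjusted p = 0.00052).

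Of the 41 members, 26 were lower and 0 higher at the LTF+MMP8 than at the CAMP stage, where 20.9% of the 10373 genes tested were called lower. The median log2 difference was -1.20 over the members and 0.00 over all genes. Without normalization factors, where the median of all genes moved to 0.46, 17 members were lower and 2 higher (HMGB2 and NCAPD2), and 8.94% of genes were lower. Of the 5 mitotic kinases 4 fell (AURKA, AURKB, NEK2, TTK), among them AURKB, the kinase of the chromosomal passenger complex, from 54.0, 59.0 and 57.6 CPM to 8.62, 9.04 and 12.4 CPM (log2 -1.48, SE 0.26). Of the 8 spindle proteins 6 fell, led by the spindle assembly proteins CKAP2 (log2 -2.15, SE 0.29) and NUSAP1 (log2 -2.12, SE 0.46).

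CDCA8, a subunit of the passenger complex, fell by 1.73 (log2, SE 0.29), and NDC80, which holds the kinetochore to microtubules, fell by 1.68 (SE 0.31). CKS1B, a small subunit that binds CDK1, fell by 1.83 (SE 0.22), HMMR, a spindle protein, by 1.78 (SE 0.34), and TMPO, a protein of the nuclear lamina, by 0.83 (SE 0.27). UBE2C, the ubiquitin-conjugating enzyme of the anaphase-promoting complex, fell by 2.04 (SE 0.42).

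Several well-known proliferation markers did not pass in this fit of summed UMIs. MKI67, the Ki-67 antigen, had a log2 difference of -1.07 (SE 0.51, adjusted p = 0.11), TOP2A, a topoisomerase that untangles sister chromosomes, -0.60 (SE 0.59, adjusted p = 0.46). CDC20, the activator of the anaphase-promoting complex, had -0.95 (SE 0.43, adjusted p = 0.089), and CENPE, a kinetochore motor, -0.12 (SE 0.40, adjusted p = 0.85). Sums follow the deepest barcodes. With each barcode thinned to 1000 UMIs before summing, an alternative chosen after seeing the data, 32 of 37 tested members were lower, against 20.7% of genes, and the median over the members was -2.08. In that fit MKI67 fell by 2.26, CDC20 by 1.90, TOP2A by 1.87 and CENPE by 1.05 on the log2 scale.

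Per barcode, the means of these members were also lower: MKI67 went from 95.2, 119 and 92.9 CPM at the CAMP stage to 21.6, 31.9 and 18.6 CPM, and TOP2A from 142, 152 and 128 CPM to 36.0, 42.7 and 37.3 CPM. Of the 41 members, 38 were lower at the LTF+MMP8 stage in all 3 whole marrows. The mean at the LTF+MMP8 stage ranged from 10.3% of the CAMP mean for CDCA2, which binds a phosphatase to chromatin, to 40.2% for CENPF, a kinetochore protein, among those 38.

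HMGB2, TACC3 and NCAPD2 were the 3 exceptions. HMGB2 had 2391, 2494 and 2618 CPM at the CAMP stage, 5676, 5767 and 5540 CPM at the LTF+MMP8 stage and 4976, 4878 and 4953 CPM at the CXCL8 stage, with no overlap between the CAMP stage and either later stage. Its log2 difference between the LTF+MMP8 and CAMP sums was 0.48 (SE 0.29, adjusted p = 0.22), and 1.09 (SE 0.17, adjusted p = 2.4e-09) after thinning, where 26.1% of genes were called higher. Some barcodes kept no UMI of any other member once thinned to 1000 UMIs, though their full counts may hold some. In those of the LTF+MMP8 stage HMGB2 took 5.56, 5.72 and 5.46 of 1000 UMIs. In those of the CAMP stage it took 2.01, 2.03 and 2.02.

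TACC3, which stabilises spindle microtubules, had 46.4, 55.4 and 53.2 CPM at the CAMP stage, 52.0, 71.4 and 59.3 CPM at the LTF+MMP8 stage and 93.2, 73.3 and 113 CPM at the CXCL8 stage. NCAPD2, a condensin subunit, had 10.7, 14.4 and 15.9 CPM at the CAMP stage and 11.9, 13.2 and 18.2 CPM at the LTF+MMP8 stage, which overlap. Neither passed in the sums: log2 -0.19 for TACC3 and 0.47 for NCAPD2.

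The place of the fall depends on which stage takes a barcode that is in both gates. When each barcode was given to its latest gate instead, 0 members were lower and 3 higher (HMGB2, TACC3 and AURKB) at the LTF+MMP8 stage, where 21.2% of genes were higher, and CDK1 turned to a log2 difference of 0.47. The CXCL8 stage then had 33 of 41 members lower, where 20.1% of genes were lower.

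Inside the LTF+MMP8 gate the module-high share followed the CAMP share of the barcode. At 8% CAMP or more, 47.9%, 54.8% and 36.4% of barcodes were module-high in whole marrow 1 to 3, and at 4% to 8% the shares were 14.5%, 18.5% and 10.9%. Below 0.1% CAMP the shares were 2.19%, 2.68% and 1.73%. HMGB2 went the other way, from 0.259%, 0.276% and 0.262% of UMIs at 8% CAMP or more to 0.584%, 0.600% and 0.577% below 0.1%.

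**Figure D3:**
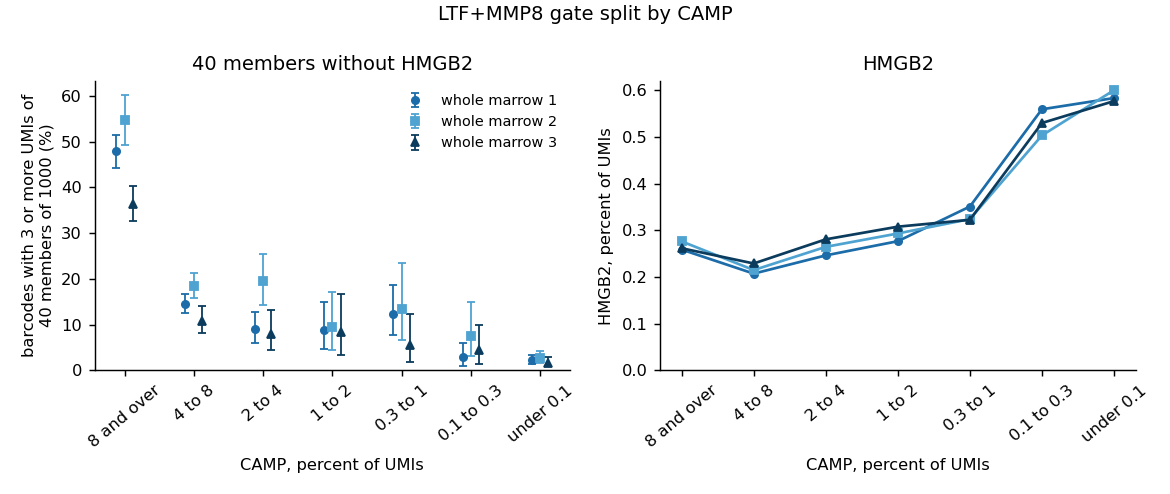
Barcodes of the LTF+MMP8 gate by their CAMP share (horizontal axis, percent of UMIs, in bins), with the percent of module-high barcodes without HMGB2 (left, bars are exact 95% binomial intervals) and the HMGB2 share of UMIs (right), for each whole-marrow library. The module-high share is 36.4% to 54.8% in the highest CAMP bin and 1.73% to 2.68% in the lowest, and HMGB2 is higher in the lowest bin in each library.

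Earlier in the lineage the module changed less. From the MPO to the ELANE stage 2 members were lower and 3 higher, where 15.5% of genes were lower and 20.6% higher. CDCA2 and NCAPD2 fell by 0.82 each on the log2 scale, and ANP32E, a histone chaperone, rose by 0.82 (SE 0.17, adjusted p = 0.00017). The direction depended on the scaling: without normalization factors the median of all genes moved from 0.01 to -0.96, and 26 members were lower and 0 higher, where 53.9% of genes were lower. DESeq2's size factors gave 4 lower and 1 higher, where 19.4% of genes were lower. Leaving out whole marrow 1 or 2 gave a count of 2, and leaving out whole marrow 3 gave 8. The mean per-barcode CPM of 31 members was lower at the ELANE than at the MPO stage. The MPO stage of whole marrow also held neutrophil granule transcripts, 5645 to 16244 CPM of the neutrophil marker list, and their part in this comparison was not tested.

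From the ELANE to the CAMP stage 12 members were higher and 2 lower, where 27.2% of genes were higher and 25.5% lower. The share of members called higher was thus close to that of all genes, and the share called lower was below it. Per barcode, 19 of the 41 members had a higher mean at the CAMP stage, and CDK1 had 0.954 of its ELANE mean. HMGB2 rose by 1.42 (log2, SE 0.30, adjusted p = 0.00044), AURKB by 1.16 (SE 0.25) and the kinesin KIF23, which acts at the central spindle, by 1.07 (SE 0.36). KIF11, the kinesin that pushes spindle poles apart, rose by 1.03 (SE 0.36), NUF2, a partner of NDC80, by 1.00 (SE 0.41), CCNB2 by 0.79 (SE 0.32) and CDK1 by 0.72 (SE 0.30). CDC25C, the phosphatase that activates CDK1, fell by 0.80 (SE 0.28) and ANP32E by 0.72 (SE 0.17). With thinned barcodes 4 members were higher (HMGB2, MKI67, AURKB and TACC3), where 24.0% of genes were, and CDC20 and ANP32E were lower. The ELANE, CAMP and LTF+MMP8 comparisons share sums, so each stands beside the others as its own values.

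Per barcode, the levels through these 3 stages differed between members. CCNB2 had 56.6, 79.1 and 87.9 CPM at the MPO stage and 70.6, 76.9 and 85.0 CPM at the ELANE stage, which overlap with its CAMP values. CDC20 had 95.9, 140 and 143 CPM at the ELANE stage and 55.6, 60.8 and 73.6 CPM at the CAMP stage, which do not overlap. Over the 5 stages, 28 members had their highest mean at the MPO stage, 6 at the ELANE stage and 5 at the CAMP stage.

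From the LTF+MMP8 to the CXCL8 stage only ANLN, a scaffold of the contractile ring, passed, with a fall of 1.77 (log2, SE 0.56, adjusted p = 0.037), where 5.03% of genes were lower. The median over the members was -0.95 against -0.10 for all genes, and 7 members had an unadjusted p below 0.05. Leaving out whole marrow 1 gave 3 called members and leaving out whole marrow 3 gave 0. With a mitochondrial limit of 5%, 24 members were lower, where 8.36% of genes were, and with no low-count filter 25 were, where 4.87% of genes were. At the CXCL8 stage 22 members stood below 10% of their highest neutrophil mean, 35 below 20% and 39 below 50%.

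Where mitosis ended was read by this rule: the earliest stage whose module-high share was under 10% of the highest stage of the lineage in each of the 3 whole marrows. Without HMGB2 the neutrophil lineage met it at the LTF+MMP8 stage, the fourth of 5, and a limit of 20% gave the same stage. With HMGB2 counted, no stage met it, because 86.6%, 88.0% and 86.6% of LTF+MMP8 barcodes then had 3 or more module UMIs. In the gates as written, which leave CAMP barcodes in the LTF+MMP8 gate, the 10% limit was not met and the 20% limit was met at CXCL8.

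The erythroid lineage did not reach an end within the 4 stages that could be read, which were GATA1 and AHSP up to 2%. Bins of 2% AHSP and over were set but lacked a value in some whole marrow at the floor of 10 barcodes. Whether the module ends in such later barcodes was therefore not read. In the AHSP stage 81.3%, 81.8% and 72.2% of barcodes of whole marrow 1 to 3 were module-high, against 21.1%, 45.5% and 29.4% at the GATA1 stage, with no overlap. The GATA1 stage held 19, 33 and 17 barcodes. Before thinning, the median depth was 36278, 39566 and 52327 UMIs at the AHSP stage and 25873, 33321 and 38499 UMIs at the GATA1 stage. At 0.2% to 0.5% AHSP 11 of 17, 19 of 22 and 2 of 8 deep enough barcodes were module-high, at 0.5% to 1% AHSP 73.8%, 80.2% and 75.7% were module-high, and at 1% to 2% 85.3%, 82.6% and 73.4% were. By quartile of HBM, a globin of the alpha cluster, the shares were 66.1%, 78.2% and 69.0% in the lowest and 92.5%, 85.5% and 77.8% in the highest quartile.

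MKI67 had 810.1, 729 and 517 CPM in the AHSP stage against 382, 224 and 95.7 CPM in the GATA1 stage. CDK1 had 78.2, 112 and 115 CPM in the AHSP stage and 36.5, 60.8 and 51.5 CPM in the GATA1 stage. Both genes were higher in the AHSP stage of every whole marrow, without overlap. Only whole marrow 2 had 20 barcodes at the GATA1 stage, so the test rests on 1 GATA1 sum, assumed to vary like the other sums, and on the AHSP sum of the same library.

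In that test 13 members were higher and 0 lower, where 13.3% of genes were higher, and the median was 1.28 over the members and 0.14 over all genes. ECT2, the exchange factor that places the cleavage furrow, rose by 2.87 (log2, SE 0.58, adjusted p = 0.00064), NEK2, a centrosome kinase, by 2.59 (SE 0.45), CDCA3, a G2 ubiquitin ligase adaptor, by 2.35 (SE 0.62), CCNB2 by 2.18 (SE 0.63) and GTSE1, a microtubule protein, by 2.04 (SE 0.63). MKI67 had 2.04 (SE 0.81, adjusted p = 0.076) and CDK1 1.12 (SE 0.50, adjusted p = 0.11). At a floor of 10 barcodes per sum, all 3 marrows entered and 34 members were higher, where 25.2% of genes were, with MKI67 at 1.98 (SE 0.61) and CDK1 at 1.39 (SE 0.32). Without whole marrow 3, at the floor of 20, the count was 20. Without normalization factors, where the median of all genes moved to -0.41, 3 members were higher (ECT2, NEK2 and CDCA3), where 4.62% of genes were, and ANP32E was lower.

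In the monocyte lineage the VCAN stage kept the module. It had 35.8%, 34.9% and 32.0% of module-high barcodes against 50.7%, 56.5% and 25.6% at the MPO stage, so the stages overlapped and no end was reached. Neutrophil markers summed to 751 to 1213 CPM in the VCAN stage, which leaves out barcodes of other lineages. Of the VCAN gate as written, 29.7%, 24.4% and 32.0% of barcodes in whole marrow 1 to 3 were also in the LTF+MMP8 gate. CD79A, from the list of B-cell markers, had 4970 to 5842 CPM in the VCAN stage. That list was not particular to the VCAN stage. In whole marrow it summed to 7496.5 to 8533.2 CPM in the MPO stage and 10793 to 11369 CPM in CD3E barcodes of no other lineage. In the CAMP stage it summed to 1676 to 2083 CPM. The part of these markers in what follows was not tested. TMPO rose from 88.6, 107 and 98.4 CPM at the MPO stage to 268, 214 and 158 CPM at the VCAN stage (log2 0.89, SE 0.25, adjusted p = 0.0081), and ANLN from 16.5, 24.2 and 9.07 CPM to 39.9, 34.1 and 36.9 CPM (log2 0.75, SE 0.23, adjusted p = 0.0099). Those 2 were the only members called, where 17.2% of genes were higher, and leaving out whole marrow 2 gave a count of 4, leaving out whole marrow 1 or 3 a count of 1. This comparison and that of the ELANE with the MPO stage share the MPO sums.

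In the B lineage the VPREB1 stage had 28.2%, 35.6% and 52.5% of module-high barcodes in whole marrow 1 to 3 and 26.6% and 41.9% in sorted 1 and 2. Barcodes were also binned by their VPREB1 UMIs, and these bins keep barcodes of the stem gate, which the VPREB1 stage leaves out. With 40 or more VPREB1 UMIs, 70.0%, 83.3%, 85.7%, 74.2% and 75.6% of barcodes were module-high. With 5 to 9 the shares were 26.7%, 33.3%, 25.4%, 14.5% and 10.0%. Barcodes with 40 or more VPREB1 UMIs were also deeper, with medians of at least 8994 UMIs against at most 6925 in the lower bins. VPREB1 was counted in UMIs, so the bins follow depth, and its part in the order was not tested.

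The MS4A1 stage had 24.4%, 2.44% and 6.90%, each below every value of the VPREB1 stage. The end rule took the VPREB1 bins as stages, and against the bin with 40 or more UMIs whole marrow 1 was not under 10%, so the B lineage did not meet it. HMGB2 had 1806, 2877 and 4840 CPM in the VPREB1 stage and 498, 181 and 526 CPM in the MS4A1 stage, without overlap, and CDK1 had 46.7, 74.5 and 139 CPM against 4.18, 0 and 14.6 CPM. The count of 0 in the 41 MS4A1 barcodes of whole marrow 2 allows a CDK1 level of up to 9.74 CPM over their pooled UMIs. The sorted libraries held 10 and 6 MS4A1 barcodes, too few for a sum.

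The test found 33 members lower and 0 higher at the MS4A1 stage, where 9.89% of genes were lower, with a median of -1.77 over the members and -0.06 over all genes. Markers of plasma cells (JCHAIN, XBP1, MZB1, TNFRSF17) moved with this step. They summed to 1964 to 5521 CPM in the MS4A1 stage of whole marrow and to 27.8 to 220.6 CPM in the VPREB1 stage. Their part in the difference was not tested. NUSAP1 fell by 2.92 (log2, SE 0.67) and BUB1, a checkpoint kinase, fell by 2.77 (SE 0.74). CDK1 fell by 2.74 (SE 0.56), GTSE1 by 2.63 (SE 0.60), CENPF by 2.61 (SE 0.71) and HMGB2 by 2.47 (SE 0.32, adjusted p = 9.3e-06). All 7 chromatin members and all 5 mitotic kinases fell, as did 6 of 8 spindle members. With thinned barcodes 19 of 37 tested members were lower, where 4.86% of genes were, and leaving out whole marrow 1, 2 and 3 in turn gave counts of 31, 16 and 14.

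Among the stem and progenitor gates the module was unevenly placed. In sorted 1 and 2 the stem stage had 15.5% and 12.3% of module-high barcodes, the MPO stage 19.9% and 16.3% and the GATA1 stage 25.6% and 17.8%. The stem gate as written held 29.9% and 36.8%, and 558 and 803 of its 1534 and 1675 barcodes were in the VPREB1 gate as well. Those shared barcodes were 54.3% and 62.0% module-high, and stem barcodes without VPREB1 were 15.9% and 13.5% module-high.

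Sums of the stem stage came from the sorted libraries, the only ones with 20 such barcodes. Between the MPO and the stem stage no member was called in the edgeR test, where 21.6% of genes were called in either direction, and 1 member had an unadjusted p below 0.05. Without whole marrow 3 the count was 2, and in the sorted libraries alone 4 members were lower and 1 higher, where 26.3% of genes were called. Between the GATA1 and the stem stage the counts were also 0, with 0 unadjusted, where 11.0% of genes were called, and DESeq2 called 0 members in both comparisons. In the fit of all 5 libraries CKAP2 was the 1 member called higher at the GATA1 than at the MPO stage (log2 0.68, SE 0.21, adjusted p = 0.031), where 11.2% of genes were higher. In the sorted libraries alone 20 members were higher and 0 lower, where 10.9% of genes were higher. In barcodes thinned to 1000 UMIs its difference was -0.17, and without either sorted library it was not called.

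The VPREB1 stage stood above both. Against the stem stage 16 members were higher and 0 lower, where 14.2% of genes were higher, and in the sorted libraries alone 38 were, where 17.5% of genes were. CKAP2L, a spindle protein, rose by 1.84 (log2, SE 0.55), MKI67 by 1.76 (SE 0.52), NDC80 by 1.62 (SE 0.41), CDK1 by 1.57 (SE 0.51), HMGB2 by 1.42 (SE 0.23) and TMPO by 1.10 (SE 0.18, adjusted p = 0.00017). Without sorted 1 the count was 7 and without sorted 2 it was 3.

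Against the MPO stage 29 members were higher and 0 lower at the VPREB1 stage, where 24.8% of genes were higher. NUSAP1 rose by 2.23 (log2, SE 0.56), HJURP, the chaperone that loads CENPA at centromeres, by 1.93 (SE 0.53), CKAP2L by 1.89 (SE 0.44), TOP2A by 1.88 (SE 0.59) and MKI67 by 1.87 (SE 0.37). All 7 chromatin members and all 4 kinesins rose. The comparisons of VPREB1 with the stem and with the MPO stage share the VPREB1 sums. Without sorted 1 or sorted 2 the count was 11 and 13, and without whole marrow 3 it was 19.

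Within a gate, sorted and whole-marrow libraries were compared for the module. In the MPO gate the share of UMIs was 0.526%, 0.528% and 0.435% in whole marrow 1 to 3 and 0.257% and 0.243% in sorted 1 and 2. These did not overlap, and the exact two-sided permutation test over libraries gave p = 0.1 (adjusted over 4 gates 0.4), the smallest p that 10 splits allow. In the stem, GATA1 and VPREB1 gates the exact permutation p was 0.6, 0.2 and 0.8. The neutrophil markers summed to 5645 to 16244 CPM in the MPO stage of whole marrow and to 10.1 to 18.4 CPM in that of the sorted libraries; the median depth of the stage was 1280, 27933 and 2324 UMIs in whole marrow 1 to 3 and 26486 and 30161 UMIs in sorted 1 and 2. The part of either in this difference was not tested.

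At the MPO stage 11 members were lower in the sorted libraries and 0 higher, where 1.54% of genes were lower, and the median over the members was -1.67. CCNB2 had 56.6, 79.1 and 87.9 CPM in whole marrow and 19.5 and 26.4 CPM in the sorted libraries, without overlap (log2 -1.80, SE 0.23, adjusted p = 0.017). AURKB fell from 46.6, 77.5 and 54.5 CPM to 21.3 and 21.9 CPM (log2 -2.02, SE 0.30). CDCA3 fell by 2.32 (SE 0.32), ANLN by 2.09 (SE 0.33) and HMMR by 1.89 (SE 0.28). With the marrow as a block, since marrows 2 and 3 gave both kinds of library, 34 members were lower, where 6.68% of genes were. Without sorted 1 or without sorted 2 no member was called, without whole marrow 2 the count was 1, without whole marrow 3 it was 23, and with thinned barcodes it was 0 of 9 tested.

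At the VPREB1 stage no member was called, with 9 at an unadjusted p below 0.05 and 1 called by DESeq2, where 0.289% of genes were called. With the marrow as a block 16 members were lower in the sorted libraries, where 2.64% of genes were. At the stem stage, fitted on sums of at least 10 barcodes because no whole-marrow stem sum reached 20, 0 of 33 tested members were called, with 9 at an unadjusted p below 0.05 and 0 called by DESeq2, where 0.138% of genes were called.

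**Figure D4:**
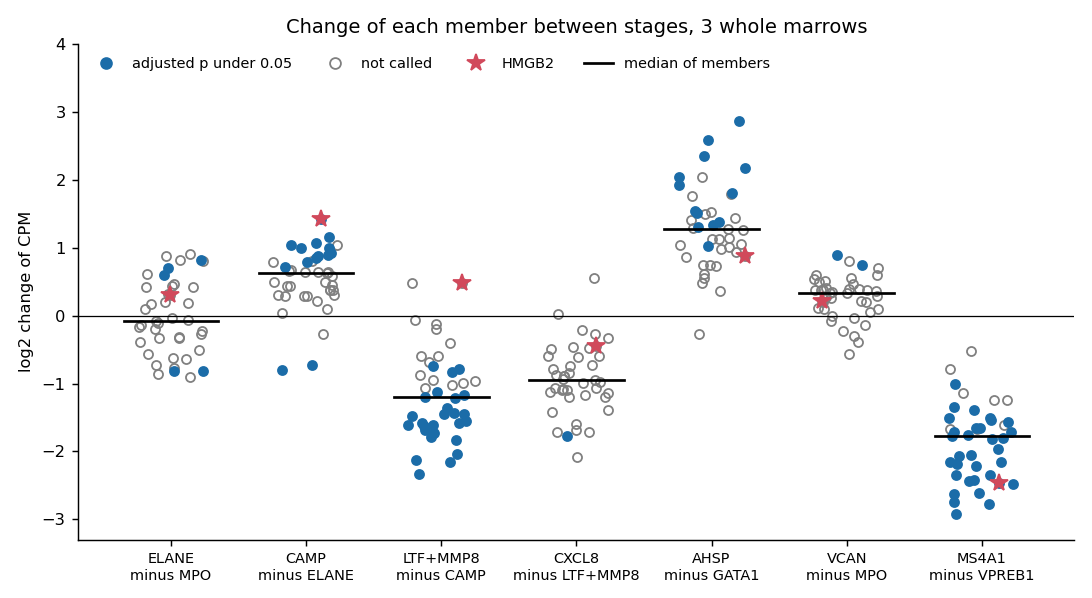
Log2 difference of each member in the edgeR fits of 3 whole marrows (vertical axis), 1 point per member, for the comparisons named on the horizontal axis; filled points have an adjusted p below 0.05, the star is HMGB2 and the line is the median. The comparison of AHSP with GATA1 rests on 1 GATA1 sum, from whole marrow 2. The members lie mostly below 0 from the CAMP to the LTF+MMP8 stage, median -1.20, and from the VPREB1 to the MS4A1 stage, median -1.77, and mostly above 0 from the GATA1 to the AHSP stage, median 1.28.

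Over the 10 gates, 23 members had their highest mean CPM in the AHSP stage, 14 in the VPREB1 stage, 3 in the VCAN stage (CDC20, CKS1B and ANLN) and 1 in the LTF+MMP8 stage (HMGB2). The lowest mean was at the CXCL8 stage for 32 members and at the LTF+MMP8 stage for 7. HMGB2 was lowest at the stem stage and TACC3 at the ELANE stage. These ranks use 1 stage per barcode, which leaves out stem barcodes that are also in the VPREB1 gate. The stem stage of whole marrow 1 to 3 then held only 17, 14 and 17 barcodes. In the gates as written the mean HMGB2 share was 0.266% for stem, between 0.114% for ELANE and 0.496% for CXCL8.

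**Figure D5:**
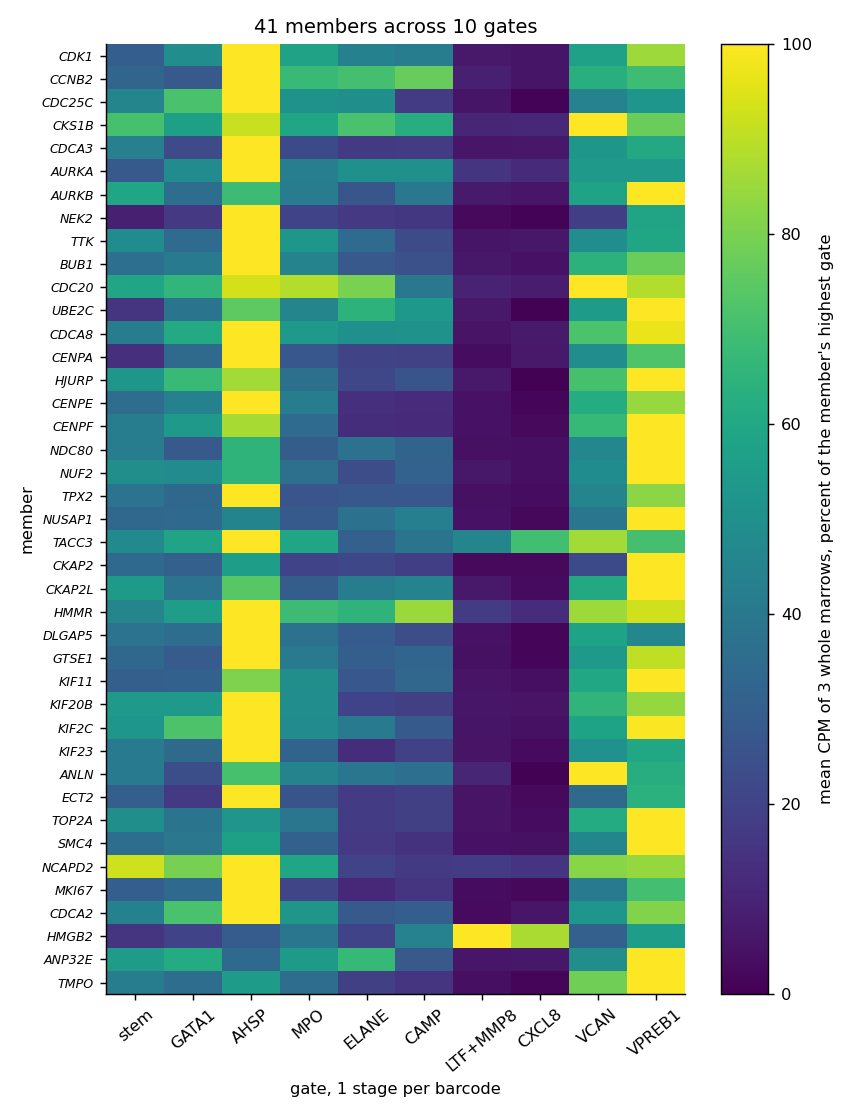
Mean CPM of each member by stage in whole marrow, relative to the member's highest stage (colour scale), in percent, with members grouped by role down the vertical axis and stages along the horizontal axis. The AHSP stage is the highest for 23 members and the CXCL8 stage the lowest for 32.

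UBE2C stood apart in whole marrow 1. Over all kept barcodes it had 9.42 CPM there, against 88.7 and 81.4 CPM in whole marrow 2 and 3 and 33.3 and 53.3 CPM in sorted 1 and 2. The ratio of whole marrow 1 to the mean of the other whole marrows was 0.111 for UBE2C and 0.621 to 1.25 for the other 40 members, with a median of 0.989. At the CAMP stage it had 8.03, 65.1 and 52.6 CPM, and at the LTF+MMP8 stage 0.835, 8.25 and 7.03 CPM, lower in each library.

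Lists of related genes, chosen with results of these data known, moved with the module at some steps and apart from it at others. Of the S-phase list (43 of 45 listed symbols measured), 28 of 42 tested genes were lower and 0 higher from the CAMP to the LTF+MMP8 stage, where 20.9% of all genes were lower, among them TYMS, which makes thymidylate (log2 -2.29, SE 0.26), and RRM2, a subunit of ribonucleotide reductase (log2 -2.06, SE 0.21). From the ELANE to the CAMP stage 22 were lower and 4 higher, where 25.5% of all genes were lower and 27.2% higher. The median was -0.56, where the module's median was 0.62. With thinned barcodes these medians were -0.86 and 0.15. In the fit without thinning MCM2, of the replicative helicase, fell by 1.45 (SE 0.32) at this step. From the MPO to the VCAN stage 22 S-phase genes were lower and 2 higher, where 18.1% of all genes were lower and the module's 2 called members were higher. With thinned barcodes 2 of 33 S-phase genes were lower there, where 3.33% of all genes were.

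Of 55 tested genes of a second list of G2 and mitosis genes, 31 were lower from the CAMP to the LTF+MMP8 stage, 28 were higher from the GATA1 to the AHSP stage and 43 were lower from the VPREB1 to the MS4A1 stage, with 0 in the opposite direction each time, where 20.9%, 13.3% and 9.89% of all genes were called in those directions. With thinned barcodes, 27 of 34 were lower and 1 higher at the first of these steps, where 20.7% and 26.1% of all genes were. At the GATA1 to AHSP step 3 were higher, where 2.17% of all genes were. At the VPREB1 to MS4A1 step 16 were lower, where 4.86% of all genes were. Of 14 tested inhibitors of the cycle, 10 were higher and 1 lower from the ELANE to the CAMP stage, where 27.2% of all genes were higher and 25.5% lower, among them CDKN2D, an inhibitor of G1 kinases (log2 4.64, SE 0.45), BTG2 (2.96, SE 0.24) and TOB1 (2.82, SE 0.18), both antiproliferative proteins. With thinned barcodes 4 of 7 were higher and 1 lower, where 24.0% of all genes were higher. From the CAMP to the LTF+MMP8 stage 5 were higher and 2 lower, where 20.9% of all genes were lower. The share of all genes called higher in that fit is not given here, so the count of 5 stands without it. BTG1 rose by 2.18 (SE 0.17) and CDKN2C fell by 1.77 (SE 0.41) there. With thinned barcodes 5 of 7 were higher and 0 lower at this step, where 26.1% of all genes were higher and 20.7% lower.

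Likeness to the module was described by Pearson's r between log2(CPM + 1) and the log2 of the module's share without HMGB2. It was taken over 39 sums per library and gate, which share libraries and depth. Outside the list, BUB1B, a checkpoint kinase, had r = 0.952, TUBA1B, an alpha tubulin, 0.948, SGO1, a protector of sister cohesion, 0.945, RACGAP1, a partner of ECT2, 0.943, and KIF22, a chromosome kinesin, 0.939. Among the 40 members that enter that share themselves, GTSE1 was the most alike at 0.956, MKI67 had 0.955 and ANP32E was the least alike at 0.605. HMGB2, which does not enter it, had 0.337.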

How the data were processed

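Per the file headers, the authors deposited raw counts, whole numbers of UMIs per feature and barcode, made with Cell Ranger 7.0.1 (7.1.0 per the submitters' processing notes, which name the build CanFam 3.1). No values were normalized by the authors, and no coordinates or sequences are given here. The members, gates and gene lists were chosen with earlier results of these data known. Member levels are means over barcodes of counts scaled to a total of 1000000 (CPM). For tests, UMIs were summed per library and stage (at least 20 barcodes) and fitted with edgeR 4.0.16 in R 4.3.3: TMM factors, filterByExpr, quasi-likelihood test with the library as a block (none for sorted against whole marrow), Benjamini-Hochberg adjustment over all genes tested, threshold 0.05. DESeq2 1.42.0 was an alternative. Genes named are 10 members named throughout (CDK1, CCNB2, CDC20, UBE2C, AURKB, MKI67, TOP2A, HMGB2, TMPO, CENPE), up to 8 falls and up to 5 rises per comparison, and exceptions chosen after their values were seen. On simulated data for the ELANE and CAMP comparison (8965 genes), the fit recovered 57 of 100 genes changed 2-fold and 99 of 100 changed 4-fold, with 7 false calls. The simulation used 1 expression profile for all stages, a fixed spread, no library effect and 200 changed genes. Error rates of the fits on the real counts were not tested. The marrow pairs the libraries per the labels: the sorted 1 minus sorted 2 differences correlated with those of whole marrow 2 minus 3 over genes at r = 0.244 (MPO stage) and 0.466 (VPREB1 stage). Total UMIs per library ranged from 46114431 to 70169186. Barcodes in gates of more than 1 lineage (272 to 907 per library) were left out of the sums. The level of a monocyte marker list is not reported here.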

Additional observations from a re-analysis of the deposited data

Results flagged for a closer look

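Barcodes that entered no gate still carried the module. Without HMGB2, 17.4%, 17.6% and 18.7% of them were module-high in whole marrow 1 to 3 and 17.5% and 20.9% in sorted 1 and 2, above the 6.85% to 10.7% of the CD3E gate. They are listed here for a signal in barcodes that no comparison uses. There were 1043, 602 and 682 such barcodes in whole marrow and 964 and 698 in the sorted libraries, and what they are was not tested.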

How the results depend on the processing

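Of 396 values recomputed under alternatives for the summary results, 234 kept their direction and size. Comparisons are named later minus earlier stage, with the number of members called. The share of all genes called changed with the setting as well, and the counts below stand without it. Depth limits what the late neutrophil stages can show, since thinning leaves few member UMIs, and the count for AHSP minus GATA1 rests on 1 GATA1 sum. Where a direction or call differs below, the cause was not tested.

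With DESeq2 the counts were 3 for ELANE minus MPO (2 lower, 1 higher, the balance reversed), 6 for AHSP minus GATA1, 33 for sorted minus whole at the MPO stage and 1 at the VPREB1 stage. DESeq2 size factors gave 5 for ELANE minus MPO (4 lower) and 0 for CXCL8 minus LTF+MMP8. No normalization factors gave 26, 9 (CAMP minus ELANE), 0 (CXCL8 minus LTF+MMP8) and 4 (AHSP minus GATA1). No low-count filter gave 19 for ELANE minus MPO (11 lower), 31 for CAMP minus ELANE, 25 for CXCL8 minus LTF+MMP8, 32 for AHSP minus GATA1, 17 for VCAN minus MPO, 9 for VPREB1 minus stem, and 27 and 2 for sorted minus whole at the MPO and VPREB1 stages. A mitochondrial limit of 5% gave 3 for ELANE minus MPO (2 lower), 24 for CXCL8 minus LTF+MMP8, 1 for VCAN minus MPO, 7 for VPREB1 minus stem, 0 for GATA1 minus MPO, 13 for VPREB1 minus MPO, and 21 and 2 for sorted minus whole at the MPO and VPREB1 stages, with module shares of 0.816% for VPREB1 and 0.172% for CD3E. The latest stage in place of the earliest gave 4 for ELANE minus MPO (3 lower), 0 for CAMP minus ELANE, 3 for LTF+MMP8 minus CAMP (all higher) and 33 for CXCL8 minus LTF+MMP8. Without called doublets CXCL8 minus LTF+MMP8 had 2, and CD3E a share of 0.164% and 18.4% with at least 3 of 1000 UMIs. Only the sorted libraries gave 5 for MPO minus stem, 1 for GATA1 minus stem, 38 for VPREB1 minus stem and 20 for GATA1 minus MPO.

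Alternatives chosen after seeing the data follow. Thinned barcodes gave 3 for ELANE minus MPO (1 lower), 6 for CAMP minus ELANE, 0 for CXCL8 minus LTF+MMP8, 4 for AHSP minus GATA1, 1 for VCAN minus MPO, 19 for MS4A1 minus VPREB1, 1 for MPO minus stem, 2 for GATA1 minus MPO (both lower, reversed), 16 for VPREB1 minus MPO and 0 for sorted minus whole at the MPO stage. Thinned and without normalization factors the counts were 9 for ELANE minus MPO (reversed), 5 for CAMP minus ELANE, 0 for CXCL8 minus LTF+MMP8, AHSP minus GATA1, VCAN minus MPO and sorted minus whole at the MPO stage, 20 for MS4A1 minus VPREB1, 2 for MPO minus stem and 1 for GATA1 minus MPO (lower, reversed). Barcodes of at least 1000 UMIs gave 4 for ELANE minus MPO (3 lower), 0 for CXCL8 minus LTF+MMP8 and 8 for AHSP minus GATA1. At least 10 barcodes per sum gave 0 for CXCL8 minus LTF+MMP8, 34 for AHSP minus GATA1, 1 for MPO minus stem, 33 for VPREB1 minus stem and 0 for GATA1 minus MPO. Barcodes of both gates given to VPREB1 gave 1 for MPO minus stem and 35 for VPREB1 minus stem.

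No replicate block (libraries unpaired) gave 1 for ELANE minus MPO, 5 for CAMP minus ELANE, 0 for CXCL8 minus LTF+MMP8, 5 for AHSP minus GATA1, 1 for VCAN minus MPO, 0 for GATA1 minus MPO and 16 for VPREB1 minus MPO; the replicate block by marrow gave 34 and 16 for sorted minus whole at the MPO and VPREB1 stages.

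Without 1 library the counts were 2 to 8 for ELANE minus MPO, 10 to 11 for CAMP minus ELANE, 19 to 25 for LTF+MMP8 minus CAMP, 0 to 3 for CXCL8 minus LTF+MMP8, 14 to 20 for AHSP minus GATA1, 1 to 4 for VCAN minus MPO, 14 to 31 for MS4A1 minus VPREB1, 0 to 2 for MPO minus stem, 3 to 20 for VPREB1 minus stem, 0 to 1 for GATA1 minus MPO, 11 to 35 for VPREB1 minus MPO and 0 to 23 for sorted minus whole at the MPO stage. The share in the gates of sorted minus whole ranged from -0.523 to -0.0873 percentage points for stem, -0.286 to -0.172 for GATA1, -0.277 to -0.230 for MPO and -0.427 to 0.198 for VPREB1 (0.0251 without whole marrow 3, 0.198 without sorted 1). AHSP minus GATA1 could not be fitted without whole marrow 2, nor the stem stage of sorted minus whole at 20 barcodes.

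Pooled UMIs gave module shares of 0.552% for MPO, 0.501% for CAMP, 0.577% for LTF+MMP8, 0.591% for CXCL8, 0.763% for VCAN, 1.51% for VPREB1, 0.2997% for MS4A1 and 0.407% for CD3E. With 1 stage per barcode LTF+MMP8 had 0.612% and CXCL8 0.530%. Without HMGB2 the shares were 0.375% for GATA1, 0.538% for AHSP, 0.273% for MPO, 0.189% for ELANE, 0.183% for CAMP, 0.140% for LTF+MMP8, 0.0605% for CXCL8, 0.361% for VCAN, 0.749% for VPREB1 and 0.125% for CD3E. Barcodes with at least 3 of 1000 UMIs were then 39.1% for GATA1, 77.2% for AHSP, 44.4% for MPO, 27.2% for ELANE, 24.7% for CAMP, 17.2% for LTF+MMP8, 6.24% for CXCL8, 34.7% for VCAN, 45.9% for VPREB1 and 9.38% for CD3E, and the neutrophil end was stage 4 (no stage with HMGB2). For all members, at least 2 of 1000 held for 68.9% of stem, 94.3% of AHSP, 79.6% of MPO, 64.1% of ELANE, 72.1% of CAMP, 80.7% of LTF+MMP8, 89.8% of CXCL8, 70.6% of VCAN, 71.0% of VPREB1, 37.0% of MS4A1 and 40.6% of CD3E barcodes. At least 2 of 500 held for 78.6% of AHSP, 53.6% of MPO, 47.6% of CAMP, 58.3% of LTF+MMP8, 66.3% of CXCL8, 51.6% of VCAN and 22.4% of CD3E. At least 5 of 1000 held for 42.6% of stem, 38.3% of GATA1, 70.1% of AHSP, 47.9% of MPO, 24.8% of ELANE, 33.2% of CAMP, 44.5% of LTF+MMP8, 58.8% of CXCL8, 40.3% of VCAN, 43.8% of VPREB1 and 7.13% of CD3E.

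The 75 calls of named members gave 1207 values under alternatives. Of these, 960 kept direction and call, 225 kept the direction without the call, and 22 turned direction. In ELANE minus MPO without normalization factors, and thinned as well, ANP32E had -0.18 and -0.049 and CKAP2 -0.30 and -0.0048, and CKS1B had -0.41 without them. In CAMP minus ELANE, CDK1 had -0.024 and CCNB2 -0.029 when thinned without normalization factors, and CDC25C 0.61 and KIF23 -0.24 at the latest stage. In LTF+MMP8 minus CAMP at the latest stage, CDK1 had 0.47, CCNB2 0.69, UBE2C 0.78, AURKB 1.11, TMPO 0.58, CKAP2 0.52, NUSAP1 1.23, CKS1B 0.29, HMMR 0.94, CDCA8 0.25 and NDC80 0.57. CKAP2 in GATA1 minus MPO had -0.17 and -0.15 when thinned with and without normalization factors.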
